A study of Mus musculus with 13 samples.

Results

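The first hour of ER stress in PERK WT mouse embryonic fibroblasts (MEFs) was described by 2 of the 13 ribosome footprint libraries of the study, an untreated control and a library from cells given 1 µM thapsigargin (Tg) for 1 h. Tg blocks the calcium pump of the endoplasmic reticulum (ER), so that ER calcium runs down and proteins misfold there. The study followed WT MEFs and MEFs knocked out for PERK (PERK -/-) untreated and after 1, 2, 5 and 8 h of Tg at 1 µM, in 10 libraries. Another 3 libraries came from NIH3T3 cells, a mouse fibroblast line with PERK, either untreated or given 200 nM Tg for 2 or 7 h. The WT and the PERK -/- MEFs are each 1 cell line, all MEFs grew in the same medium, and apart from the Eif2ak3 knockout the labels name no allele. Genes were kept where their mean over the 10 MEF libraries was at least 2 TPM (a share of all transcripts in the library, corrected for coding length), which left 10432 of 22406 gene symbols. Zfp873, at a mean of 2.00 TPM, was the last gene inside that limit, and Nudt16, at 1.999 TPM, was the first outside it. Each change is the log2 ratio of the 1 h TPM to the control TPM, with every TPM under 4 set to 4.

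PERK, encoded by Eif2ak3, is a kinase in the ER membrane that senses unfolded proteins and phosphorylates the initiation factor eIF2α. Most initiation then falls, while a few mRNAs with short open reading frames in their leader, among them Atf4, are translated better. ATF4 in turn switches on genes for stress recovery and amino acid supply, and the IRE1 and ATF6 sensors act beside PERK on ER chaperones and degradation factors.

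Each condition had 1 library, so no difference below has a replicate check and no test between conditions was possible. The intervals given are exact conditional 95% intervals of the log2 change in expected counts per library total. They come from the counts of the pair alone and cover counting error only. The paper names no molecular identifiers, so reads copied from the same molecule may make the intervals too narrow. Expected counts over the listed genes were 11949174 in the WT control and 3609292 at 1 h, within a range of 2525029 to 14799515 over the 13 libraries. TPM is relative, so more footprints on one mRNA cannot be told apart from fewer on the others, nor a change in mRNA level from a change in translation. In the paper, polysome profiles had overall translation fall sharply in WT MEFs at 1 h, and not in PERK -/- MEFs. The changes given here are therefore not absolute levels and cannot be compared as such between the lines. The median change of all expressed genes was 0.00 in WT, -0.06 in PERK -/- MEFs at 1 h and -0.17 in NIH3T3 at 2 h.

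The fibroblast identity of the WT pair showed in its markers. Of 10 fibroblast markers, 9 stood at 4 TPM or more in both libraries, with a summed level of 6630 TPM in the control and 5887 TPM at 1 h. Pecam1, Cdh5 and Tek (endothelial) and Ptprc, Adgre1, Lyz2 and Itgam (leukocyte) were listed at 0 in both. Of 7 epithelial markers, only Krt18 and Krt19 reached 4 TPM in both, with a summed level of 25.1 TPM in the control and 25.3 TPM at 1 h. Of 4 neural markers, Tubb3 and Map2 reached it, while Gfap was at 0. None of the skeletal muscle or adipocyte markers reached 4 TPM in both libraries, and Fabp4, of adipocytes, had 0 TPM in the control and 8.19 TPM at 1 h.

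The WT 1 h library stood apart from the other WT libraries in one respect, and every result below rests on it. Genes at 10 TPM or more in all 5 PERK -/- libraries and at no more than 5% of their PERK -/- mean in the control, 2 h, 5 h and 8 h WT libraries numbered 12, and this choice made no use of the WT 1 h values. All 12 passed 5% in the WT 1 h library, where their median level was 25.2% of the PERK -/- mean (range 13.5 to 65.8%). By the same rule for each of the other 4 WT libraries, 0 to 2 of 12 to 14 genes passed 5%, with medians from 0.0 to 2.12%. Stmn2, a tubulin-binding protein best known from neurons, had 48.9 TPM in the WT 1 h library against 1.63 to 6.11 TPM in the other WT libraries and 154 to 191 TPM in the PERK -/- libraries. The others were Gm4737, Hoxd13, S100a7a, Fabp4, Ppbp, Coch, Rpl34-ps1, Tdg-ps, LOC102637947, Sfn and Cxcl5. The source of these footprints was not tested. As an alternative chosen after seeing the data, the PERK -/- 1 h or the PERK -/- control profile was subtracted from the WT 1 h library at 25.7% or 27.1%, the median shares of these genes. Values after subtraction are given below beside some of the results that it moved, with the PERK -/- 1 h profile first, and other changes moved as well.

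Eif2ak3, the targeted gene, had 6.03 TPM in the WT control and 8.49, 6.20, 14 and 15.7 TPM at 1, 2, 5 and 8 h. The PERK -/- libraries had 11.2, 7.32, 5.21, 14.9 and 17.2 TPM at the same times, and NIH3T3 cells 10.8, 6.27 and 26.8 TPM. The levels of both MEF lines overlapped, so footprints remained on this gene in the knockout line. Values summed over the gene do not show which exons they cover, and the knockout therefore could not be checked from Eif2ak3 itself. Its change in the WT pair was 0.49 in TPM but -0.56 in footprint counts (interval -1.02 to -0.13).

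Of the expressed genes, 452 (4.33%) were raised at least 2-fold at 1 h in WT MEFs and 239 (2.29%) were lowered at least 2-fold. All counts of list members past 2-fold in WT below are to be read against these shares. The count interval lay above 0 for 437 of the raised and below 0 for 220 of the lowered, and the whole interval lay past 2-fold for 206 and 43. Raised genes had started low, with a median of 6.85 TPM in the control, and lowered genes higher, with a median of 28.1 TPM, against 19.2 TPM for all expressed genes. The rule itself favours this gap. The control TPM is part of the ratio, and with values floored at 4 TPM a gene that starts near the floor cannot be called lowered. After subtraction of the PERK -/- 1 h profile 652 genes were raised, 423 of them among the 452, and 648 were lowered, 228 of them among the 239. With the PERK -/- control profile these numbers were 606 (407) and 870 (228).

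**Figure D1:**
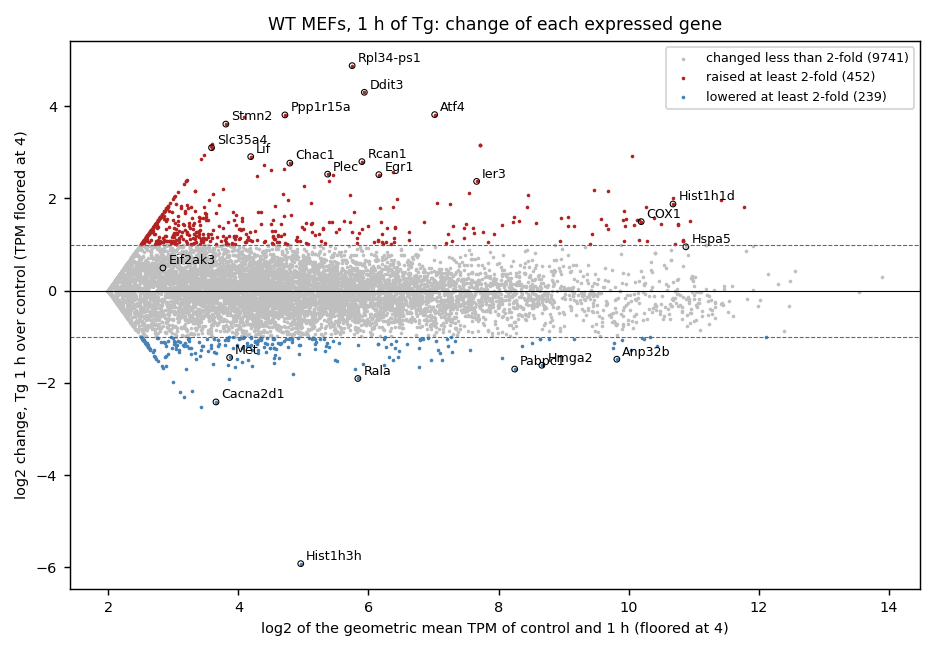
Log2 change from control to 1 h of Tg in WT MEFs (TPM floored at 4, vertical axis) against the log2 geometric mean TPM of the pair (horizontal axis) for the 10432 expressed genes. Each point is 1 gene of 1 library pair; the 452 raised and 239 lowered at least 2-fold are coloured, with Rpl34-ps1, Ddit3, Atf4 and Ppp1r15a highest on the vertical axis.

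The mRNAs whose leaders hold inhibitory upstream reading frames included the most strongly raised genes of all lists. Atf4, the transcription factor at the centre of the integrated stress response, was raised 14.1-fold. Of 15 expressed members of the list, 10 were raised at least 2-fold and 0 lowered, against 4.33% and 2.29% of all expressed genes. Their median change was 1.31 (95% interval of the median 0.00 to 3.10) against 0.00 for all expressed genes, 0.13 in PERK -/- MEFs and 1.98 in NIH3T3. The stretches around the upstream start codon nearest to the coding start are printed for some members to show how these frames differ. Capitals mark that ATG, the sequence is that of the GENCODE M21 transcript on GRCm38 (mm10), and the region after each name is the gene.
Atf4, chr15:80255184-80257541, plus strand, 97 nt before the coding start: gcctaagccATGgcgctcttc
Ddit3, chr10:127290774-127296288, plus strand, 122 nt before it: atgttgaagATGagcgggtgg
Ppp1r15a, chr7:45522916-45526268, minus strand, 104 nt before it: gagggcgacATGaacccgctg
Ifrd1, chr12:40201567-40248504, minus strand, 202 nt before it: gagagaaacATGtatcgtttc
The Atf4 frame, of 59 codons, runs past the main start codon and overlaps the coding sequence. Frames of Atf5 (58 codons) and Sat1 (44 codons), not printed, overlap theirs too. Those of Ddit3 (31 codons), Ppp1r15a (26 codons) and Ifrd1 (52 codons) end before the main start codon. Across all expressed genes such letters were common, and 48.3% of leaders held an upstream reading frame. Genes raised at least 2-fold had one in 47.2% of cases and lowered genes in 53.9%. Of 1560 genes with a frame that overlaps the coding start, 3.53% were raised, so the presence of such a frame alone did not mark the raised genes.

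Atf4 had 34.5 TPM in the WT control and 487, 551, 569 and 576 TPM at 1, 2, 5 and 8 h, with 429 footprints in the control and 1845 at 1 h although the 1 h library was the smaller. Its change at 1 h was 3.82 (interval 3.68 to 3.99). In PERK -/- MEFs Atf4 stood between 25.1 and 60.2 TPM in all 5 libraries, below every treated WT value, and its change at 1 h was -0.72. The WT change exceeded the PERK -/- change by 4.52 on the log2 scale (interval 4.24 to 4.81). Most of the Atf4 level seen at 8 h in WT cells was thus present at 1 h.

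Ddit3 encodes CHOP, a transcription factor tied to cell death after long stress. It had 13.8 TPM in the WT control and 272, 442, 564 and 580 TPM at 1, 2, 5 and 8 h, and 6.91 to 14.2 TPM in PERK -/- MEFs. Its change at 1 h was 4.30 (count interval 3.87 to 4.57), and 0.26 in PERK -/- MEFs. Ddit3 went on up after 1 h, and no treated WT value overlapped the PERK -/- range.

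Ppp1r15a encodes GADD34, the phosphatase subunit that reverses eIF2α phosphorylation. It had 7.01 TPM in the control and 98.4 TPM at 1 h, a level it held at 98.1, 110, and 117 TPM at 2, 5 and 8 h. Its change was 3.81 (interval 3.58 to 4.07) against 0.34 in PERK -/- MEFs. Ppp1r15b, the subunit made without stress, went the other way, from 35.9 to 22.4 TPM.

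Other members of the list followed at lower levels. Slc35a4, a transporter-like gene on chromosome 18 whose leader encodes a small protein, had 4.10 TPM in the control and 35.2 TPM at 1 h (change 3.10, interval 2.62 to 3.63, PERK -/- change 0.03). Ifrd1 had 127 and 305 TPM, Ptp4a1, a phosphatase, 39.1 and 103 TPM, and Atf5 2.74 and 20.9 TPM. Bace1, Ucp2 and Slc7a1, whose leaders also hold upstream frames, changed by -0.68, 0.30 and 0.00. With the PERK -/- 1 h profile subtracted, Slc35a4 came to 3.46 and Atf4, Ddit3 and Ppp1r15a to 4.23, 4.72 and 4.22.

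Genes that ATF4 and CHOP are known to control were only in part raised after 1 h. Of 20 expressed members of the integrated stress response list, 9 were raised at least 2-fold and 1 was lowered, with a median change of 0.93 (interval 0.00 to 2.07). The median was -0.27 in PERK -/- MEFs and 1.00 in NIH3T3. The list shares Atf4, Ddit3, Ppp1r15a, Ppp1r15b and Atf5 with the one above. The share of all footprints on the stress response list went from 0.0324% to 0.130% at 1 h, with 0.255% in the 2 h library. This share includes Atf4, Ddit3 and Ppp1r15a themselves, so it is not one of ATF4 and CHOP targets alone.

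Some promoters of both ATF4-linked lists hold the C/EBP-ATF element, the DNA letters TGATGNAA to which ATF4 dimers are known to bind. Both strands were searched from 250 bases before to 50 after each RefSeq start (GRCm38), for the 8448 expressed genes with a promoter in the table. The letters were found in 2.66% of all these promoters, in 7 of 18 (38.9%) of the integrated stress response list and in 5 of 16 (31.2%) of the amino acid supply list. Promoters of cytosolic aminoacyl-tRNA synthetases held them in 5 of 14 cases (35.7%). A match is a description and shows no binding. Some of the windows are printed, chosen for holding the element, because genes with nearly the same letters differed at 1 h. Capitals mark the match, each sequence is read on the strand that holds it, and the region given is the printed window.
Atf3, chr1:191183428-191183451, plus strand: ggacttggTGATGCAAgtgcgaga
Chac1, chr2:119351041-119351064, minus strand: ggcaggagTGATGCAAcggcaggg
Nupr1, chr7:126625565-126625588, plus strand: gccctgtcTGATGCAAtctggccc
Herpud1, chr8:94386309-94386332, minus strand: gtgcgggcTGATGCAAcccgccgt
Asns, chr6:7693217-7693240, minus strand: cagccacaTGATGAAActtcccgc
Pycr1, chr11:120643836-120643859, minus strand: cctgtgtaTGATGCAAtgcacaag
Got1, chr19:43524692-43524715, plus strand: ggcttgtaTGATGCAAccaatgca
Slc7a11, chr3:50443664-50443687, minus strand: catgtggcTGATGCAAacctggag
Of these 8 genes the first 4 are from the integrated stress response list and the last 4 from the amino acid list.

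Chac1, which breaks down glutathione, had 10.6 TPM in the control and 72.2, 231, 184 and 186 TPM at 1, 2, 5 and 8 h in WT MEFs. Its change at 1 h was 2.77 (interval 2.39 to 3.18) against -0.34 in PERK -/- MEFs. Herpud1, a membrane factor of ER-associated degradation, had 25.6 TPM in the control and 108, 462, 534 and 535 TPM at the later times (change at 1 h 2.07, PERK -/- 0.55). Both had thus reached less than their 2 h level at 1 h. Atf3 went from 7.62 to 16.6 TPM and Nupr1, a small stress-induced chromatin protein, from 30.2 to 59.5 TPM.

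The amino acid genes stayed within 2-fold of the control. Asns, asparagine synthetase, had 67.5 TPM in the control and 64.3 TPM at 1 h. Got1, an aspartate transaminase, had 65.2 and 60.5 TPM, and Slc7a11, the cystine transporter, 2.51 and 3.13 TPM, both under the floor. Of 19 expressed genes of amino acid supply, 0 were raised and 0 lowered at least 2-fold at 1 h, with a median change of 0.10 (interval -0.13 to 0.56). The largest positive value was that of Slc3a2, the heavy chain of several amino acid transporters, with 255 and 469 TPM, and Slc38a2, with most footprints of the list, had 456 and 648 TPM. Of 20 cytosolic aminoacyl-tRNA synthetases 0 passed 2-fold in either direction, with a median change of 0.05. The 2 h WT library, set against the same control, had medians of 1.29 for amino acid supply and 0.53 for the synthetases.

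Cebpg, a dimer partner of ATF4 and CHOP, was the 1 gene of the stress list lowered at least 2-fold. It had 32.5 TPM in the control, 10.5 TPM at 1 h and 46.4 to 51.1 TPM from 2 h on, so that only the 1 h library was low. The 1 h value rests on 15 footprints (change -1.64, interval -2.50 to -0.86).

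**Figure D2:**
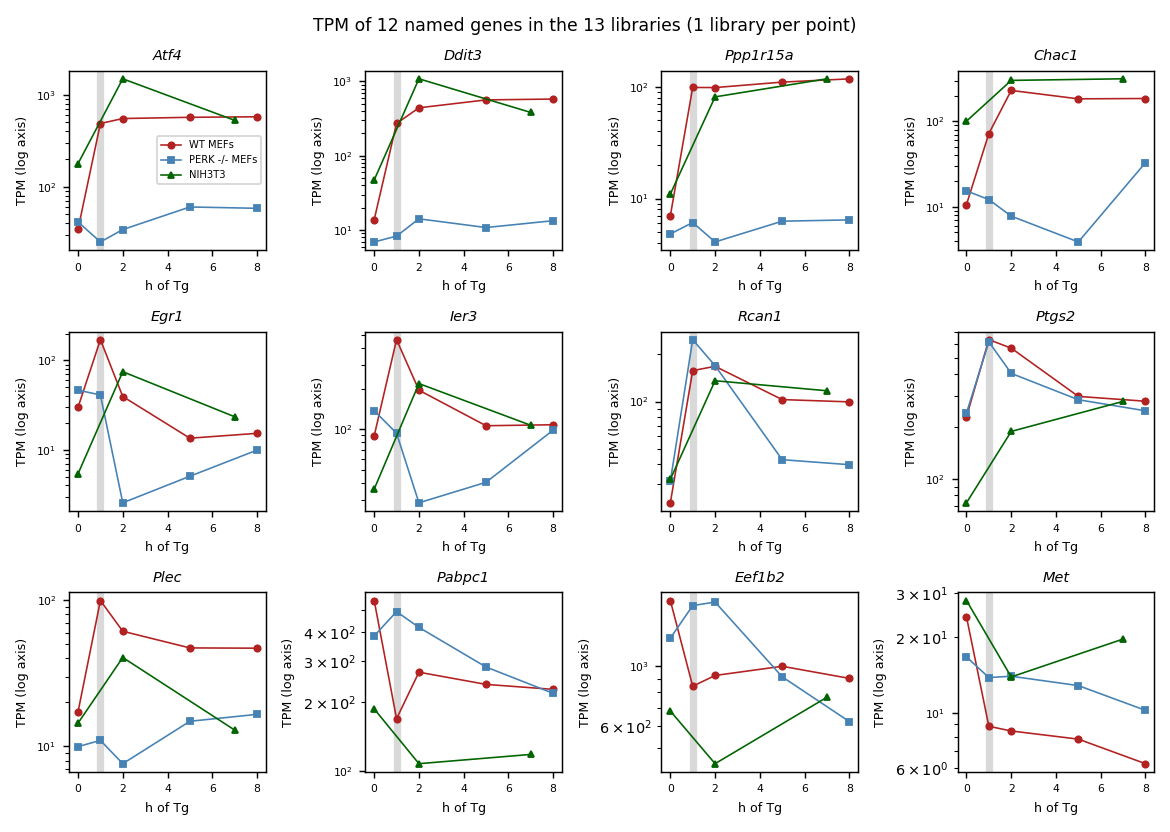
TPM (log axis) of 12 genes against hours of Tg, 1 panel a gene, with a line for each cell line, 1 point per library (WT MEFs circles, PERK -/- MEFs squares, NIH3T3 triangles) and a grey bar at 1 h. Atf4, Ddit3 and Ppp1r15a are up by 1 h in WT and stay near 25 to 60, 7 to 14 and 4 to 6 TPM in PERK -/- MEFs, Egr1 peaks at 1 h, and Rcan1 climbs in both MEF lines.

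Hspa5, the main ER chaperone BiP, had 1357 TPM in the control and 2624, 4462, 7253 and 7149 TPM at 1, 2, 5 and 8 h. Its change at 1 h was 0.95 (interval 0.94 to 0.99), just under 2-fold, against 0.26 in PERK -/- MEFs, and became 1.07 or 1.14 under the 2 subtractions. Of 27 expressed ER chaperones and folding enzymes 2 (7.41%) were raised at least 2-fold and 0 lowered, against 4.33% and 2.29% of all expressed genes, with a median of -0.10. The count interval lay above 0 for 5 of them and below 0 for 13. The calnexin and calreticulin genes Canx and Calr, whose products bind glycoproteins, had 1244 and 751 TPM and 3468 and 2531 TPM.

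Xbp1 and Dnajb9, on the IRE1 branch of the response, were raised in both MEF lines. Xbp1, the target that IRE1 splices, had 29.2 TPM in the control and 83.5 TPM at 1 h in WT MEFs (change 1.52, interval 1.34 to 1.77) and 34.5 and 69.5 TPM in PERK -/- MEFs (change 1.01). Footprint totals do not separate its spliced from its unspliced form. Dnajb9, a co-chaperone of BiP known as an XBP1 target, had 20.3 and 51.6 TPM in WT and 30.4 and 65.8 TPM in PERK -/- MEFs. Its changes of 1.35 and 1.12 did not differ beyond counting error (difference 0.22, interval -0.23 to 0.67). After subtraction its WT change was 1.20 or 1.55.

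Sdf2l1, an ER chaperone partner, had 23.9 and 55.4 TPM, and Syvn1, the ubiquitin ligase HRD1, 26.6 and 55.9 TPM. Creb3, an ER-bound transcription factor, had 39.7 and 80.8 TPM. Of 17 ER-associated degradation genes only Syvn1 and Herpud1 (11.8%), and of 12 unfolded protein response sensors and factors only Xbp1 and Creb3, were raised at least 2-fold. In the 26 genes of ER translocation and glycosylation 0 passed 2-fold, with a median of -0.07. Eif2s1, which encodes eIF2α itself, had 354 TPM in the control and changed by -0.36.

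Immediate-early genes, which cells switch on within minutes of a signal without new protein, were raised as a group. Of 29 expressed members 15 were raised at least 2-fold and 0 lowered, with a median of 1.14 (interval 0.67 to 1.59). The median was 0.00 in PERK -/- MEFs at 1 h and 1.16 in NIH3T3 at 2 h. Their share of footprints in WT went from 0.0987% to 0.220% at 1 h, with 0.194% in the 2 h library, and 0.0887% and 0.0944% in the PERK -/- pair.

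Egr1, a zinc finger factor, had 29.9 TPM in the control, 171 TPM at 1 h and then 39.5, 13.5 and 15.3 TPM at 2, 5 and 8 h. Its change at 1 h was 2.52 (interval 2.38 to 2.68) against -0.18 in PERK -/- MEFs, where it never passed its control level of 46.6 TPM. Ier3, an early response survival gene, had 89.2 TPM in the control and 461, 195, 106 and 108 TPM later. Dusp1, a phosphatase that turns off MAP kinases, had 14.7 and 70.9 TPM. All 3 stood highest at 1 h among the WT libraries.

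The serum response element, a site for the SRF factor, was found in 1.63% of all promoters and in 4 of 23 (17.4%) of this list. A pair of these is printed to show the site, in capitals.
Egr2, chr10:67537488-67537509, plus strand: tcttctCCTTTTTTGGaaagtc
Zfp36, chr7:28379271-28379292, minus strand: gccgccCCATAAAAGGagaaag
Egr2 had 1.58 TPM in the control and 12.2 TPM at 1 h (change 1.6 in floored TPM and 2.95 in counts, interval 2.28 to 3.66). Zfp36, which speeds decay of cytokine mRNAs and was chosen for its site, had 12.2 and 33.5 TPM. Of the 138 genes with this element 8.70% were raised at least 2-fold, against 4.10% of those without.

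Cytokines and inflammatory early genes were raised as well. Of 14 expressed members 9 were raised at least 2-fold and 0 lowered, with a median of 1.32 (interval 0.29 to 1.87), 0.10 in PERK -/- MEFs and 1.26 in NIH3T3. In PERK -/- MEFs 3 were raised and 1 lowered, against 0.719% and 3.38% of all expressed genes there. Their share of footprints went from 0.0959% to 0.198% in WT and from 0.0884% to 0.165% in PERK -/- MEFs. Cxcl1, a neutrophil chemokine, had 0 footprints in the control and 23 at 1 h, at least 25.4-fold higher when the control is set to the limit of 3 counts that a count of 0 allows. Lif, a cytokine of the IL-6 family, had 6.66 and 49.9 TPM in WT and 2.45 and 8.61 TPM in PERK -/- MEFs. Ptgs2, the inducible cyclooxygenase, had 228 and 635 TPM in WT and 239 and 617 TPM in PERK -/- MEFs. Ptgs2 was thus about as high at 1 h without PERK, with changes of 1.48 and 1.36. After subtraction its WT change was 1.49 or 1.78.

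Rcan1, an inhibitor of the calcium-activated phosphatase calcineurin, behaved likewise. It had 22.6 TPM in the control and 157, 168, 103 and 99.5 TPM later in WT MEFs, and 31.1, 248, 169, 42.6 and 39.6 TPM in PERK -/- MEFs. The changes at 1 h, 2.8 and 2.99, did not differ beyond counting error (difference -0.20, interval -0.59 to 0.19). After subtraction the WT change of Rcan1 was 2.48 or 3.18. Ctgf, a secreted matricellular protein, had 1058 and 2819 TPM in WT and 444 and 995 TPM in PERK -/- MEFs.

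The calcium handling list had more lowered than raised members. Of 18 expressed members 5 (27.8%) were lowered and 2 (11.1%) raised at least 2-fold, against 2.29% and 4.33% of all expressed genes, with a median of -0.27 (interval -1.02 to 0.24). Stim2, a sensor of ER calcium, had 16.5 and 5.06 TPM in WT and 19.2 and 6.93 TPM in PERK -/- MEFs. Its changes of -1.71 and -1.47 did not differ beyond counting error (difference -0.29, interval -0.82 to 0.23). After subtraction its WT change was -1.90 or -2.05. Atp2b1, a calcium pump of the plasma membrane, had 49.0 and 18.9 TPM in WT but 47.8 and 45.3 TPM in PERK -/- MEFs.

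Ppp3ca, the catalytic calcineurin subunit, had 34 and 15.2 TPM, and Mcu, the pore of the mitochondrial calcium uniporter, 32.8 and 16.2 TPM. Orai3, a store-operated channel subunit, was the other raised member beside Rcan1, with 2.38 and 10.6 TPM. Its level in the PERK -/- control was 10.8 TPM. Cacna2d1, a calcium channel subunit outside this list, had 29.1 and 5.46 TPM, a change of -2.41 in TPM and -2.00 in footprint counts.

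Id1 and Id3, inhibitors of basic helix-loop-helix factors and targets of BMP signals, were the members of the BMP and TGF-beta list raised at least 2-fold. Id3 had 171 and 721 TPM in WT (change 2.08, interval 1.93 to 2.25) and 293 and 276 TPM in PERK -/- MEFs. Id1 had 38.7 and 135 TPM in WT. Of 15 expressed members 2 (13.3%) were raised and 1 (6.67%), the decoy receptor Bambi, was lowered at least 2-fold (32.3 and 14.6 TPM). Over all expressed genes these shares were 4.33% and 2.29%. The count interval lay above 0 for 6 members and below 0 for 3. The median was 0.00 with 4 members under the floor in both libraries, and 0.64 with a floor of 1 TPM.

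Histone mRNAs, which lack a polyA tail and are made in S phase, took a larger share of footprints. Of 58 expressed core histone genes 36 were raised and 1 lowered at least 2-fold, with a median of 1.11 (interval 0.99 to 1.45), -0.13 in PERK -/- MEFs and 0.87 in NIH3T3. Their share of all footprints was 1.46% in the control and 3.38% at 1 h in WT, and 1.67% and 1.51% in the PERK -/- pair. After subtraction 47 or 43 of the 58 were raised. Hist1h2bn had 387 and 2929 TPM in WT (change 2.92) and 775 and 1376 TPM in PERK -/- MEFs.

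Core histone genes are near-identical copies that share reads, so single copies are uncertain. Hist1h2ag, Hist1h2ao and Hist1h2ap had identical values in every library, 70.3 and 628 TPM in the WT pair. Hist1h3h, the lowered one, had 1005 footprints in the control and 0 at 1 h, at least 101-fold lower, and was listed at 0 in every treated WT library and in the PERK -/- 1 h library. Among the 53 core histone promoters 54.7% held TATAAA, against 8.55% of all promoters, and 83.0% held CCAAT, against 44.1%. Hist1h1d, a linker histone that is less repeated, had 858 and 3156 TPM (change 1.88, interval 1.85 to 1.94), against -0.44 in PERK -/- MEFs. Of 7 linker histone genes 3 were raised and 0 lowered.

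The 13 mRNAs of the mitochondrial genome, translated by mitochondrial ribosomes that do not use eIF2, were raised nearly without exception. At least 2-fold was reached by 12 of 13, with a median of 1.41 (interval 1.07 to 1.5), against 0.16 in PERK -/- MEFs and 1.8 in NIH3T3. COX1, a subunit of cytochrome oxidase, had 697 TPM in the control and 1968, 1247, 1026 and 969 TPM later in WT MEFs, highest at 1 h, and 581 and 691 TPM in the PERK -/- pair. After subtraction the median was 1.68 or 1.74. The share of footprints on these mRNAs was 0.361% in the control and 0.961% at 1 h in WT, and 0.308% and 0.339% in the PERK -/- pair. Nuclear genes for subunits of the same respiratory complexes had a median of 0.01 over 76 members, and mitochondrial ribosomal proteins one of -0.05.

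Plec and Flnc, very large proteins that tie actin and other filaments to adhesions, were among the raised members of the actin cytoskeleton list. Plec had 17.3 and 99.5 TPM in WT (change 2.53, interval 2.47 to 2.60, from 3064 and 5357 footprints) and 9.98 and 11 TPM in PERK -/- MEFs. Flnc had 37.7 and 95.1 TPM in WT. The median of the 30 members was 0.21, and in PERK -/- MEFs 0.24.

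Of 18 heat shock proteins, most of them cytosolic, 4 (22.2%) were raised and 1 (5.56%) was lowered. Over all expressed genes these shares were 4.33% and 2.29%. The list median was -0.04, with 9 members above 0 and 9 below. Hspb8 and Cryab, small heat shock proteins, had 6.32 and 29.3 TPM and 4.76 and 21.4 TPM, and Hspa1b, an inducible HSP70, had 25.2 and 70.6 TPM. Their levels in the PERK -/- control were 55.4, 29.5 and 60.3 TPM, above the WT control in each case. Under the subtractions Hspb8 changed by 2.18 or 1.63 and Hspb8, Cryab and Hspa1b stayed past 2-fold. Hspa1a, at 1.20 in TPM and 1.94 in counts, came to 1.05 or 0.69. Hspe1, the mitochondrial HSP10 and the 1 lowered member, had 1306 and 595 TPM.

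Zinc finger genes with the name Zfp, many of them repressors of transposons, had a median of 0.24 (interval 0.14 to 0.35). Of 228 such genes 23 (10.1%) were raised and 0 lowered, against 4.33% and 2.29% of all expressed genes. Zfp781 had 4.73 and 21.3 TPM and Zfp65 5.03 and 17.4 TPM. Of the 228, 49 were under the floor in both libraries, and the median was 0.40 or 0.38 after subtraction, 0.42 with a floor of 1 TPM and 0.00 with no filter on low values.

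Some of the largest changes in the WT pair fell on genes of the kind that set the 1 h library apart. Rpl34-ps1, a ribosomal protein pseudogene, had 9.91 and 292 TPM in WT and 767 to 1064 TPM in PERK -/- MEFs, and its change of 4.88 became 2.05 under one subtraction and -1.11 under the other. Gm4737 had 0 and 174 footprints, at least 192-fold higher, and came to 0.00 or 0.86. Anxa8, a membrane-binding annexin, had 2.61 and 30.9 TPM and 108 to 154 TPM in PERK -/- MEFs. Its change was 2.95 in TPM and 3.59 in counts, and 0.00 after either subtraction. Coch (1.46 in TPM, 6.23 in counts) and Ctsk (1.03 and 2.42) also came to 0.00 after either. Gm8369, with 1.12 and 35.3 TPM (3.14 in TPM, 4.98 in counts), and Rpl37rt, with 0 and 17 footprints, were high at 1 h without such levels in the PERK -/- control (2.59 and 0.00 TPM), though Gm8369 reached 29.0 TPM in the PERK -/- 5 h library.

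**Figure D3:**
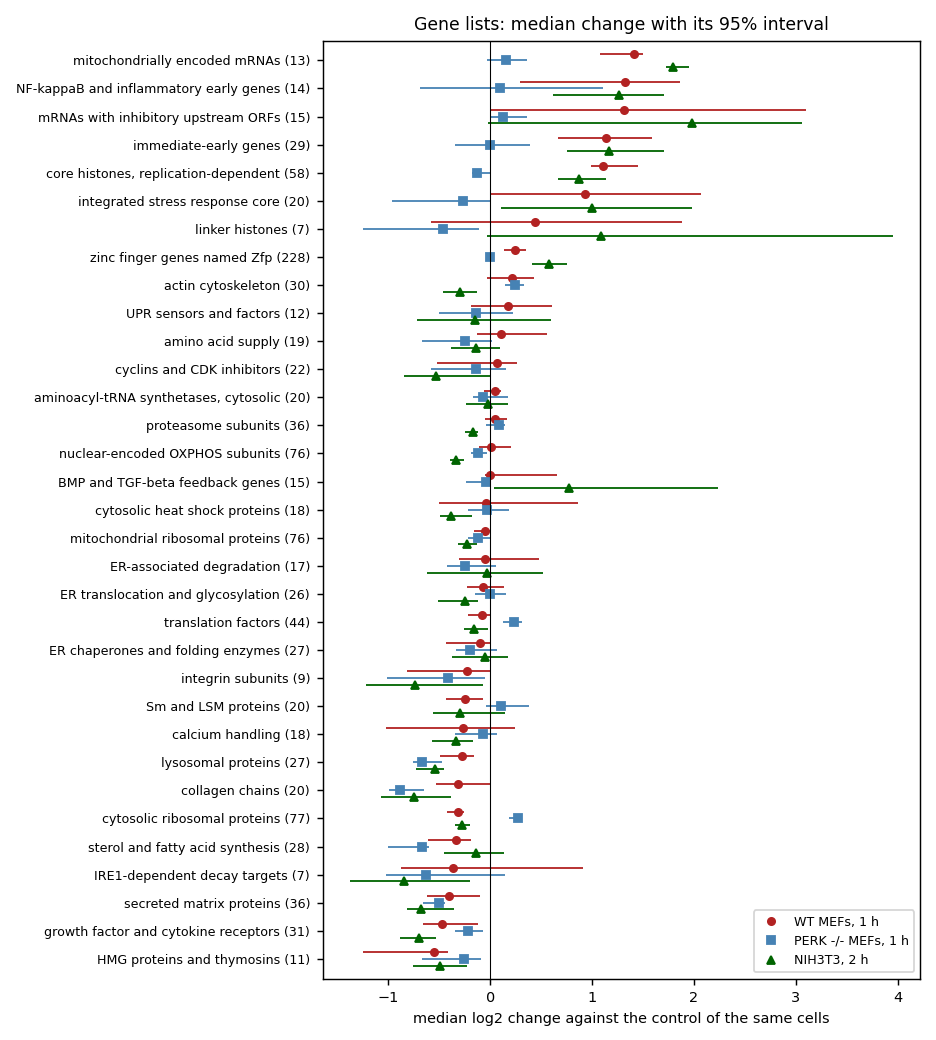
Median log2 change at 1 h of Tg of each gene list (horizontal axis) in WT MEFs (circles), PERK -/- MEFs (squares) and, at 2 h, NIH3T3 cells (triangles), with its 95% interval over genes as a bar and the number of expressed members in parentheses. Mitochondrially encoded mRNAs (1.41), early inflammatory genes (1.32) and mRNAs with upstream reading frames (1.31) lie highest in WT, and ribosomal proteins lie at -0.32 in WT and 0.27 in PERK -/- MEFs.

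Among lowered groups the translation machinery had the most footprints. Pabpc1, the main polyA-binding protein, had 548 TPM in the control and 169, 268, 238 and 226 TPM later, lowest at 1 h, from 12923 and 1214 footprints. Its change was -1.70 (interval -1.77 to -1.6) against 0.35 in PERK -/- MEFs, where it had 385 and 491 TPM, and became -3.25 or -2.63 after subtraction. Eef1b2, an exchange factor of elongation, had 1743 and 843 TPM in WT and 1266 and 1670 TPM in PERK -/- MEFs. Eif1 and Tpt1, the start codon selection factor and the abundant TCTP protein, had 1643 and 677 TPM and 2087 and 916 TPM in WT. These were the 4 translation factors lowered at least 2-fold, of 44 with a median of -0.08 (0.23 in PERK -/- MEFs). Their share of 9.09% stands against 2.29% of all expressed genes.

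Cytosolic ribosomal proteins moved by less, but nearly together. Of 77 expressed members 68 lay below 0 and 9 above, with a median of -0.32 (interval -0.42 to -0.26). Only Rps7 and Rps27 were lowered at least 2-fold, 2.6% of members against 2.29% of all expressed genes. In PERK -/- MEFs the median was 0.27 (interval 0.19 to 0.32), and in NIH3T3 -0.28. Their share of footprints was 6.80% in the control and 5.48% at 1 h in WT, and 5.78% and 7.08% in the PERK -/- pair. Rps7 had 1825 and 912 TPM in WT and 1372 and 1827 TPM in PERK -/- MEFs. With the PERK -/- 1 h profile subtracted the median was -0.53 and 11 members passed 2-fold.

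Most mRNAs of this kind begin with a C and a run of pyrimidines, the TOP motif through which mTOR signals reach them. Such a start lay within 3 bases of the RefSeq start in 44.3% of 61 ribosomal protein promoters, against 14.9% of all promoters, and in 21% of the genes lowered and 15% of those raised. Rps27 shows the form, with the tract in capitals.
Rps27, chr3:90213629-90213653, minus strand: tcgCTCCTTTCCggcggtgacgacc
Rps27 had 573 and 276 TPM in WT and 510 and 688 TPM in PERK -/- MEFs. Rps27rt had the same values in every MEF library, so the reads of these copies cannot be told apart.

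Of 11 HMG proteins and thymosins 3 (27.3%, against 2.29% of all expressed genes) were lowered at least 2-fold and 0 raised. In all 10 lay below 0, with a median of -0.55. The PERK -/- median was -0.25 (interval -0.67 to -0.09), with 0 members above 0. Anp32b, an acidic histone chaperone outside that list, had 1512 and 540 TPM (change -1.48), Ptms, parathymosin, 1335 and 562 TPM, and Hmga2, an architectural chromatin protein, 712 and 232 TPM (change -1.62, interval -1.79 to -1.39). Ptms had 2184 and 1150 TPM in PERK -/- MEFs. After subtraction the change of Ptms, -1.25 as deposited, was -1.90 with one profile and at the floor with the other. Rala, a small GTPase of exocytosis, had 111 and 29.6 TPM in WT and 89.0 and 79.1 TPM in PERK -/- MEFs (difference -1.75, interval -2.17 to -1.32), and its change of -1.90 became -3.15 or -3.89.

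Lists of receptors, matrix proteins, collagens, lysosomal proteins and genes of sterol and fatty acid synthesis had medians below 0 in both MEF lines. The median was -0.47 over 31 growth factor and cytokine receptors, -0.41 over 36 secreted matrix proteins, -0.34 over 28 genes of sterol and fatty acid synthesis, -0.31 over 20 collagen chains and -0.28 over 27 lysosomal proteins. In PERK -/- MEFs these medians were -0.22, -0.50, -0.67, -0.89 and -0.67, so only the receptors lay lower in WT. At most 1 member of each list was lowered at least 2-fold in WT, where 2.29% of all expressed genes were. These numbers depended on the subtraction. The 5 medians with the PERK -/- 1 h profile were -0.71, -0.40, -0.29, -0.38 and -0.35, with 5, 5, 3, 2 and 3 members lowered at least 2-fold. They were, with the PERK -/- control profile, -0.74, -0.62, -0.79, -0.62 and -0.73, with 9, 12, 11, 6 and 8 lowered.

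Met, the receptor of hepatocyte growth factor, had 24.1 and 8.82 TPM in WT and 16.7 and 13.8 TPM in PERK -/- MEFs. Lamp1, a lysosomal membrane glycoprotein, had 820 and 399 TPM in WT and 912 and 647 TPM in PERK -/- MEFs. Itga6, an integrin chain for laminin, had 41.4 and 17.8 TPM. Col18a1, a basement membrane collagen chain, had 11.7 and 5.51 TPM.

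Among the remaining lists, the median was 0.06 over 22 cyclins and CDK inhibitors, with Ccng1 (36.1 and 15.3 TPM, change -1.24, after subtraction -2.21 or -3.17) and the S phase cyclin Ccne1 (24 and 11.8 TPM) lowered at least 2-fold. It was 0.04 over 36 proteasome subunits, -0.22 over 9 integrin subunits, -0.24 over 20 Sm and LSM proteins and -0.37 over 7 mRNAs known to be cut by IRE1. Sparc, the most abundant of those IRE1 targets, had 2883 and 2159 TPM in WT. Its WT and PERK -/- changes of -0.42 and -0.48 did not differ beyond counting error (difference 0.04, interval -0.01 to 0.09). After subtraction its WT change was -0.39 or -0.60. Lsm12 was the 1 lowered member of the Sm and LSM list, with 144 and 64.6 TPM.

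Signal sequences are hydrophobic stretches near the N terminus that bring a ribosome to the ER. Stretches of this kind were looked for in the GENCODE M21 coding sequences. A gene was counted where 8 residues in a row within the first 30 averaged at least 2.2 on the Kyte-Doolittle scale. The rule does not separate cleaved signals from membrane anchors. It also counted Mcu, of the mitochondrial uniporter, as well as Rcan1 and Xbp1. The shares below are thus of hydrophobic N termini, not of proteins shown to enter the ER. Of 10225 genes with a protein 16.8% met it. The share was 28.4% among genes lowered at least 2-fold, 22.9% between -1 and -0.5, 17.2% between -0.5 and 0, 15% between 0 and 0.5, 14.2% between 0.5 and 1 and 15.7% among genes raised at least 2-fold. In PERK -/- MEFs the shares in the same order were 28.8, 26.1, 18.1, 11.6, 12 and 23.6%. After subtraction the share in WT was 22.6% or 29.0% among genes lowered at least 2-fold. Among those raised it was 13.4% or 12.7%. The first 90 coding bases of a few genes are printed to show what the rule counted in lowered and in raised genes, and capitals mark the 8 codons with the highest mean.
Met, chr6:17463800-17573980, lowered: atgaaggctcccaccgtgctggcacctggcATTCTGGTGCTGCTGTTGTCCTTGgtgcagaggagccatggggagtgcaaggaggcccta
Lamp1, chr8:13159161-13175338, lowered: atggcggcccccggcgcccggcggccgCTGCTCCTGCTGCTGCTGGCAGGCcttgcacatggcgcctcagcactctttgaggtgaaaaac
Cacna2d1, chr5:15934691-16374511, lowered: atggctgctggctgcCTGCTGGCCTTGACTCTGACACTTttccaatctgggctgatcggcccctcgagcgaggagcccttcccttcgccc
Ptgs2, chr1:150100031-150108227, raised: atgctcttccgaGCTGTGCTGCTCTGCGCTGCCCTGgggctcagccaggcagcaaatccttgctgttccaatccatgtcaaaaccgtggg
Ctgf, chr10:24595442-24598683, raised: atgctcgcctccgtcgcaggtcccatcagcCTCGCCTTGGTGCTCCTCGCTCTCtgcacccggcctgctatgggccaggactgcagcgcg
All 5 genes lie on the plus strand of GRCm38. They were picked for carrying the stretch.

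The 1720 genes with such an N terminus had a median change of -0.02 in WT, with 3.84% raised and 3.84% lowered, and the other 8505 had a median of 0.00, with 4.16% raised and 1.95% lowered. In PERK -/- MEFs the medians were -0.23 and -0.04. Coding sequence GC content also moved with the change, and in opposite directions in the 2 lines. Its median was 49.4% among genes lowered and 57.1% among genes raised in WT, and 57.7% and 51.0% in PERK -/- MEFs, against 52.8% over all expressed genes. The part of base composition in the changes was not tested apart from removing the GC trend. That gave 368 genes raised, 336 of them among the 452, and 218 lowered, 178 of them among the 239.

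**Figure D4:**
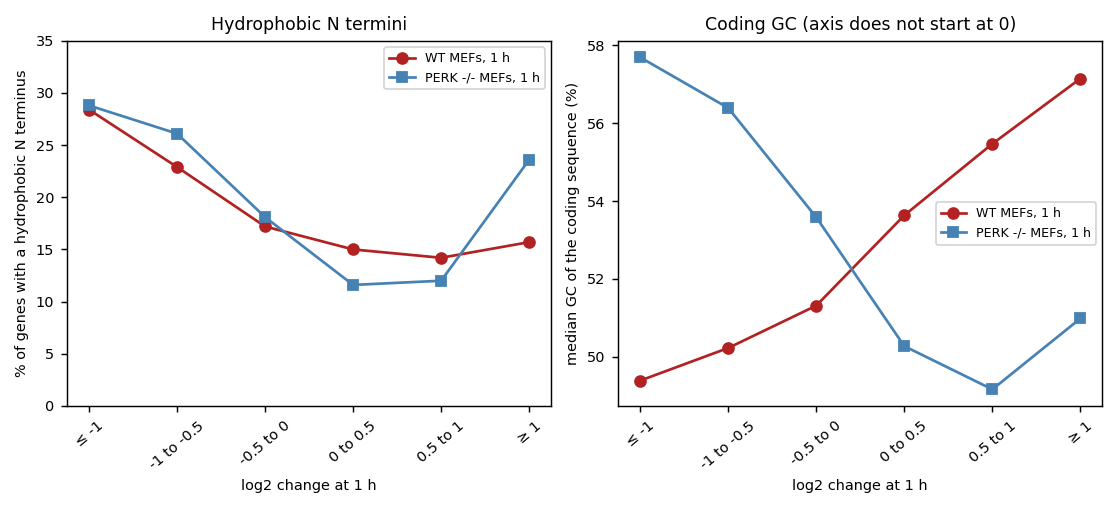
Share of genes with a hydrophobic N terminus (percent) and median coding GC content (percent) in 6 bins of the 1 h log2 change, for WT (circles) and PERK -/- MEFs (squares), with no error drawn and the GC axis not starting at 0. The hydrophobic share falls from 28.4% among lowered to 14.2% between 0.5 and 1 in WT, and GC content runs upward in WT, and in PERK -/- MEFs downward to 49.2% between 0.5 and 1 and back to 51.0% among raised genes.

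The PERK -/- pair, treated alike and set against its own control, had 75 genes (0.719%) raised and 353 (3.38%) lowered at least 2-fold. Of the 452 genes raised in WT, 15 were raised there too, 3.32% of the WT list and 20.0% of the PERK -/- list. Beside Xbp1, Dnajb9, Ptgs2, Ctgf, Lif and Rcan1 these were Hist1h4i, Rgs16, Fam150a, Ccl7, Cited2, Nr4a1, Ap5m1, 2410002F23Rik and C330021F23Rik. Lowered in both lines were 18 genes, 7.53% of the WT and 5.10% of the PERK -/- list. Opposite calls were 38 genes raised in WT and lowered in PERK -/- MEFs, and 1 gene lowered in WT and raised there. The WT change lay above the PERK -/- change beyond counting error for 396 of the 452 raised genes and below it for 185 of the 239 lowered. Over all 10432 expressed genes it lay above for 3475 and below for 2252. The 452 and 239 genes were chosen by this same WT change, which by itself favours such a gap. The median PERK -/- change was -0.10 over the genes raised in WT and -0.14 over those lowered in WT. In NIH3T3 cells at 2 h, a later time and a lower dose than in the MEFs, 293 of 406 expressed WT-raised genes lay above 0, with a median of 0.51, and 174 of 208 WT-lowered genes below 0, with a median of -0.59. Over all 9367 genes expressed in both, 3173 lay above 0 and the median was -0.17, so a value below 0 was common in that pair.

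**Figure D5:**
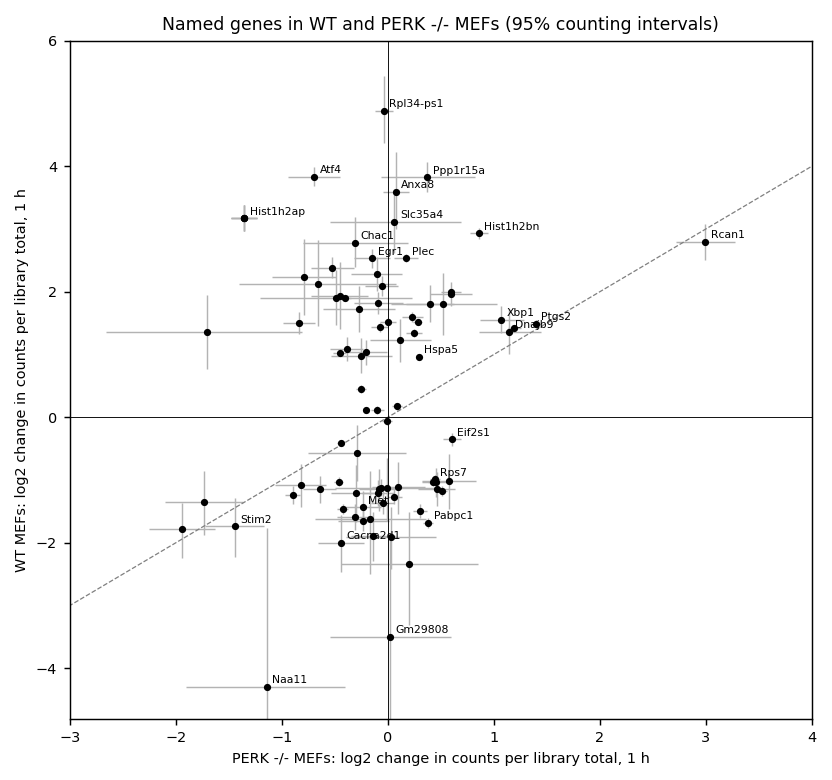
Log2 change in counts per library total at 1 h of Tg in WT MEFs (vertical axis) against PERK -/- MEFs (horizontal axis) for the 86 named genes with at least 30 control footprints in both lines, each point 1 gene with its 95% counting intervals as bars, cut where they leave the axes. Ppp1r15a lies high at a small PERK -/- change, Atf4 lies as high but below 0 on the horizontal axis, and Rcan1, Ptgs2, Dnajb9 and Stim2 lie near the diagonal of equal change.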

How the data were processed

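Ribosome footprints of MEFs and NIH3T3 cells were analysed, 1 library per condition. Cells were trypsinized, pelleted and flash frozen, and cycloheximide was used neither before lysis nor in the buffers, so ribosomes could move on until freezing. The authors filtered rRNA and tRNA reads with STAR, aligned the rest with Bowtie2 to clipped RefSeq coding sequences of mm10 and ran RSEM (versions are not given in the sources used here). The authors deposited expected counts from RSEM per gene, as whole numbers with no scaling between libraries, and TPM values scaled within each library. All columns of the deposited tables could be matched to the labels.

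Genes with a mean of at least 2 TPM over the MEF libraries were kept, TPM was floored at 4, and a gene was called raised or lowered at 2-fold. Intervals of counts are exact conditional (Clopper-Pearson) 95% intervals, and those of medians come from binomial order statistics over genes, which are not independent. The difference between lines is that of the log2 count changes, with an interval from the 4 counts. Named genes were, among those past 2-fold, the 15 raised and 15 lowered with the most extreme interval bounds, at most 4 per list and direction by the same bounds (or the member with most counts), and Atf4, Ddit3, Ppp1r15a, Eif2ak3, Hspa5, Xbp1 and Eif2s1. Several genes whose TPM and count changes lie over 0.5 apart are given with both values. Some genes under the floor in the control, as Orai3 and Atf5, are given by their TPM only. Some genes that the rule names are not reported here. Any other gene named was chosen for a motif, for its part in a list or a shared call after its values were seen. The members and lists were chosen with earlier results of these data known. Promoters came from RefSeq and coding and leader sequences from GENCODE M21, both GRCm38. Of the expressed genes 98.0% had a protein, translated from the coding sequence, 96.7% a leader and 81.0% a promoter.

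Alternatives were other floors, filters, folds and a pseudocount, counts per library total, edgeR TMM and DESeq2 size factors (used for scaling only), thinning of the control to the 1 h total, removal of the GC trend and, chosen after seeing the data, subtraction of a PERK -/- profile. Scripts ran under Python 3.11.15 (scipy 1.17.1, numpy 2.4.6, Biopython 1.88, pandas 2.3.3, matplotlib 3.10.9, statsmodels 0.14.6) and R 4.3.3 (edgeR 4.0.16, DESeq2 1.42.0) and were tested on simulated data.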

Additional observations from a re-analysis of the deposited data

Results flagged for a closer look

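Cytosolic ribosomal proteins had median log2 changes on opposite sides of 0 in the 2 MEF lines at 1 h, -0.32 in WT (68 of 77 members below 0) and 0.27 in PERK -/- MEFs, and neither 95% interval of the median held 0. The difference was not tested, since each line had 1 library per condition. Median coding GC content moved in opposite directions in the same pairs, from 49.4% among lowered to 57.1% among raised genes in WT and from 57.7% to 51.0% in PERK -/- MEFs.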

How the results depend on the processing

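No paired analysis was possible because each condition had 1 library and the labels give no shared replicate numbers, and for the same reason no library could be left out. The 452 raised and 239 lowered genes became 821 and 363 with a floor of 1 TPM and 112 and 23 at 3-fold, and 822 genes were raised in counts per library total. TMM gave 424 and 261, DESeq2 size factors 429 and 259, and thinning 498 and 261. The 2 subtractions of a PERK -/- profile lowered 648 and 870 genes. With the PERK -/- 1 h profile the medians of lists minus that of all genes were 1.68 for mitochondrially encoded mRNAs, -0.53 for ribosomal proteins, -0.71 for receptors and 0.40 for Zfp genes. With the PERK -/- control profile they were 1.74 for mitochondrially encoded mRNAs, -0.62 for collagens, -0.74 for receptors, -0.73 for lysosomal proteins, -0.79 for sterol genes, -0.23 for ER translocation and 0.38 for Zfp genes, and the change of Rpl34-ps1 turned to -1.11. Zfp genes also moved to 0.42 (floor of 1 TPM, and counts per library total), 0.37 (pseudocount), 0.41 (mean of at least 5 TPM) and 0.00 (no filter), and core histones to 0.89 with the GC trend removed. The cause of these moves was not tested. In all, 345 of 362 list values stayed within the 95% interval of the value as reported. Some small medians changed sign inside it, as cyclins (0.06 to -0.09) and ER translocation (-0.07 to 0.02) did with the GC trend removed. Of 95 named genes past 2-fold, 12 dropped below it under at least 1 of 5 scalings and 0 turned.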
